A study of Zea mays with 12 samples.

Results

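The transcripts of mesophyll (M) cells of the maize leaf were compared between the maturing stage and the sink–source transition (SST), and the members are all genes above 0 in at least 1 of the 4 M libraries of these stages. They number 35593 of the 110005 genes in the deposited table, of which 47572 were above 0 in at least 1 of its 12 libraries. The study captured M and bundle sheath (BS) cells by laser microdissection, in which cells are cut from fixed leaf sections under a microscope, at 3 stages along the leaf, with 2 libraries for each of the 6 combinations of cell type and stage. Maturing M came from leaf section 9, at 4 cm, and SST M from leaf section 4, at -1 cm relative to the point where the transition is complete. BS cells of the same sections serve as the comparison of the last paragraphs. By the labels all plants were untreated seedlings of the inbred Mo17, with no mutant allele, while the study's methods name B73 beside Mo17, and the sections came from the third leaf at 9 days. By the study's methods the SST section receives less light than the maturing section, so stage and light cannot be told apart. RNA of the captured cells was amplified in 1 round before polyadenylated RNA was sequenced. According to the study, this amplification draws reads towards the 3' ends of transcripts. Nothing in the labels says that the 2 libraries of a group came from separate plants or captures, so the p-values measure only the spread between libraries.

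A maize leaf matures from base to tip, and the cells of the SST turn from importing sugar to exporting it. In a mature C4 leaf, M cells hydrate CO2 with carbonic anhydrase, fix it with phosphoenolpyruvate carboxylase (PEPC) and reduce the product to malate, which moves to the BS, and they regenerate the acceptor with pyruvate, phosphate dikinase. M cells also carry much of the linear electron transport and make sucrose. Younger cells of the same file still enlarge, lay down primary wall and build ribosomes.

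Levels are given as scaled FPKM, in which fragments are divided by transcript length and by the mapped total, after the libraries had been brought to the same upper quartile (2.56 FPKM). Genes are called abundant by their scaled FPKM. With reads drawn towards the transcript ends, division by length may distort the ranking of genes against each other, which was not tested. A log2 change is maturing minus SST of the mean log2(scaled FPKM + 0.256), with its standard error (SE), from limma fitted across all 12 libraries, so it understates the change of genes near the pseudocount. A gene was called, and is said to have risen or fallen, at an adjusted p below 0.01 over all 32548 genes tested, of which 28059 were members. The other 7534 members were too low in every group to be tested. The FPKM values of a library summed to between 1009183 and 1551571 over the series, and 28071 and 27749 genes were above 0 in the maturing M libraries, against 25099 and 25029 in the SST M libraries. Sequencing depth, estimated from the spacing of low values, which rise by whole reads, was 3.58 and 3.59 times that of the first SST M library in maturing M, against 1 and 1.09 in SST M, so depth moves with stage and its part in the results was not tested. Between the libraries of a group the median absolute difference of a gene at or above the upper quartile was 0.19 on the log2 scale in maturing M and 0.31 in SST M.

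From SST to maturing, 1457 genes rose in M, 4.48% of the genes tested, and 1260 fell, 3.87%. Together they made up 8.35% of the genes tested. These calls rest on a spread shared over all 6 groups, BS and mature libraries included. On the 4 M libraries alone 26 genes rose and 10 fell, and on the 6 M libraries of all stages 420 rose and 358 fell. Risers changed by a median of 3.10-fold, and 463 of them by over 4-fold. Fallers changed by a median of 4.95-fold, and 811 of them by over 4-fold. Of the 28059 tested members, 12572 were at or above the upper quartile in their mean over the 4 M libraries. So were 1281 of the 1457 risers and 823 of the 1260 fallers. In every called gene the maturing and SST libraries did not overlap. With 2 libraries against 2, groups often separate without a change, and the share over all genes tested was not counted. The lack of overlap therefore adds no support to the calls. Among the risers 156 were listed at 0 in both SST libraries, and in 63 of these both maturing libraries were at or above the upper quartile. Among the fallers 177 were listed at 0 in both maturing libraries, and in 42 of these both SST libraries were at or above it. The same counts over all genes tested are not given. The split depended on scaling. With the values as deposited 969 genes rose and 1582 fell, and risers were 38.0% of the calls, against 53.6% after upper quartile scaling. After median-of-ratios scaling 994 rose and 1593 fell, and risers were 38.4% of the calls. The median of all members at or above the upper quartile was 0.30 after upper quartile scaling. It was 0.06 as deposited, a shift of -0.24, and 0.06 after median-of-ratios scaling, a shift of -0.23. When each M library was left out in turn, between 756 genes (without SST replicate 1) and 1023 genes (without SST replicate 2) rose, 933 without maturing replicate 1 and 956 without maturing replicate 2. By the same leaving out, 516 and 488 genes fell without maturing replicates 1 and 2, and 1050 and 1166 without SST replicates 1 and 2. In all 4 of these fits, 414 of the risers and 371 of the fallers kept their call.

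**Figure D1:**
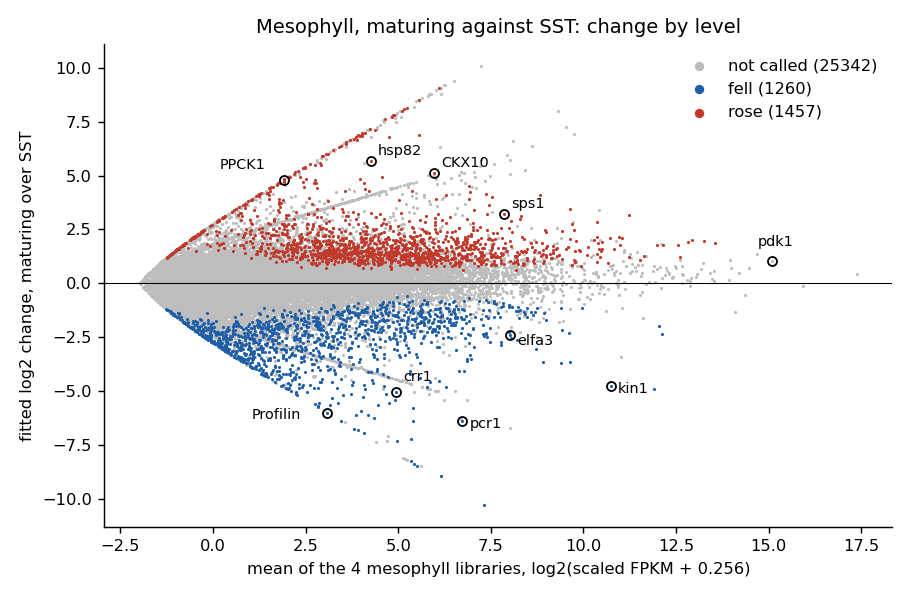
Fitted log2 change, maturing over SST, of each tested member against the log2 of its mean over the 4 M libraries (scaled FPKM + 0.256), with 1457 genes that rose in red, 1260 that fell in blue and the others in grey. The fallers reach to low levels and large changes, the risers are mostly abundant, and the straight edges are genes listed at 0 in 1 or both libraries of a group.

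The 8 genes kept in the list for the M part of the C4 cycle were present at SST and all had higher values in maturing M, but only 1 of them passed the test. The list as planned held further genes by identifier. They were left out of the 8 used when the lists were rebuilt, after the tables were seen. Among those left out, GRMZM2G121878, unnamed in the annotations used, rose (log2 change 1.89 ± 0.28, adjusted p = 0.003). No values of the others left out are given, so the count of 1 covers only the genes kept. The median log2 change of the 8 was 1.11 and stayed above 0 as deposited (0.86). The median was 0.10 over all tested members and 0.30 over members at or above the upper quartile. Pyruvate, phosphate dikinase (pdk1, GRMZM2G306345), which regenerates phosphoenolpyruvate, was the third most abundant transcript of maturing M, with 45839.5 and 49102 scaled FPKM in maturing M, against 20771 and 25188 in SST M (log2 change 1.05 ± 0.23, adjusted p = 0.017). This was 2.85 and 3.07% of the summed FPKM in maturing M, against 1.88 and 1.91% in SST M. Its regulatory protein pdrp1 had 476 and 455 in maturing M, against 234 and 254 in SST M (log2 change 0.93 ± 0.41, adjusted p = 0.17). The maturing values of both genes lay above the SST values without overlap, which is weak evidence with 2 libraries a group, and neither passed the test.

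The carbonic anhydrase gene kept in the list (GRMZM2G348512), whose product supplies bicarbonate to PEPC, had 795 and 863 scaled FPKM in maturing M, against 314 and 435 in SST M (log2 change 1.16 ± 0.24, adjusted p = 0.014). The PEPC gene pep1 had 117 and 149 in maturing M, against 78.8 and 61.3 in SST M (log2 change 0.92 ± 0.27, adjusted p = 0.05). NADP-malate dehydrogenase (mdh6), which reduces oxaloacetate to malate, had 1649 and 1628 in maturing M, against 666 and 757 in SST M (log2 change 1.21 ± 0.28, adjusted p = 0.021). None of these 3 passed the test, and their lack of overlap is weak evidence with 2 libraries a group. The oxoglutarate/malate transporter pOMT1 had the smallest change of the 8, with 1556 and 1463 in maturing M, against 1003 and 1122 in SST M (log2 change 0.51 ± 0.27, adjusted p = 0.26).

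Aspartate aminotransferase (AspAT, GRMZM5G836910), which feeds the aspartate branch of the shuttle, was the member that rose, with 1523 and 1598 scaled FPKM in maturing M, against 583 and 659 in SST M (log2 change 1.33 ± 0.23, adjusted p = 0.006). It lost the call without any 1 of the 4 M libraries (adjusted p up to 0.045) and with the values as deposited. Of the alanine aminotransferases, GRMZM5G840582 rose, with 90.5 and 97.3 in maturing M, against 18.8 and 31.4 in SST M (log2 change 1.94 ± 0.33, adjusted p = 0.0056), and kept its call only in the fit without SST replicate 2 (adjusted p up to 0.046 in the others). GRMZM5G840582 was higher in BS, with 217 and 196 in maturing BS, against 39.3 and 47.3 in SST BS, and the study counts it among BS-enriched genes. The alanine aminotransferase of the C4 list, GRMZM2G088064, was less abundant and not called, with 26.3 and 20.1 in maturing M, against 9.61 and 7.27 in SST M (log2 change 1.43 ± 0.35, adjusted p = 0.027).

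PEPC kinases, which phosphorylate PEPC and make it less sensitive to malate, changed in opposite directions. PPCK1 had 5.45 and 8.68 scaled FPKM in maturing M and was listed at 0 in both SST libraries (adjusted p = 0.0011). PPCK4 fell, with 2.10 and 2.85 in maturing M, against 11.8 and 10.9 in SST M (log2 change -2.10 ± 0.24, adjusted p = 0.0011). The other 2 of the 4 PPCK genes measured were not called. PPCK4 kept its call in each of the fits without 1 M library, and PPCK1 lost it without maturing replicate 2 (adjusted p = 0.013).

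**Figure D2:**
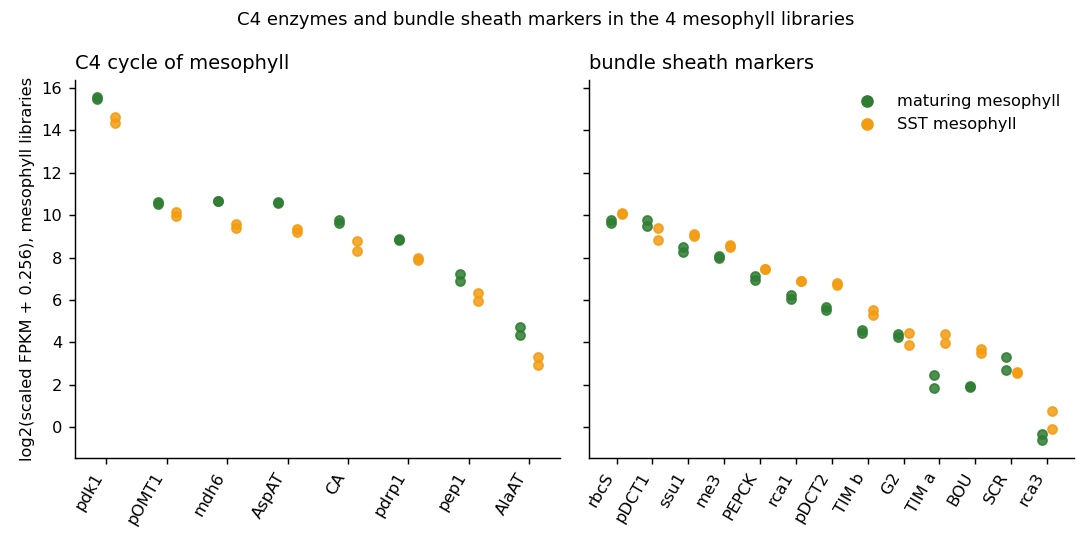
Values of 8 enzymes and carriers of the M part of the C4 cycle (left) and of 13 BS markers (right) in the 2 maturing M libraries (green) and the 2 SST M libraries (orange), as log2(scaled FPKM + 0.256), ordered by mean, with triosephosphate isomerases GRMZM2G030784 and GRMZM2G018177 as TIM a and TIM b. Each enzyme of the cycle lies higher in maturing M, while most BS markers lie level or lower.

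Genes of the thylakoid light reactions had 6 risers (25.0%, against 4.48% of all genes tested) and 1 faller among 24 tested, and 1 riser in 3 of the 4 fits without 1 M library. Their median log2 change was 0.22 and turned to -0.03 with the values as deposited, where 3 rose. The photosystem I subunit psad1 had the largest rise of the list, with 452 and 452 scaled FPKM in maturing M, against 76.5 and 100.2 in SST M (log2 change 2.37 ± 0.21, adjusted p = 0.0004). Ferredoxin-NADP reductase, which passes electrons from ferredoxin to NADP, rose in both leaf forms. L-FNRI had 1094 and 1219 in maturing M, against 269 and 482 in SST M (log2 change 1.68 ± 0.29, adjusted p = 0.0057). L-FNRII had 215 and 213 in maturing M, against 72.8 and 106 in SST M (log2 change 1.28 ± 0.24, adjusted p = 0.0081).

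The PGR5 genes, whose product acts in cyclic electron flow around photosystem I in Arabidopsis, rose as well. PGR5 GRMZM2G017045 had 1282 and 1585 in maturing M, against 432 and 576 in SST M (log2 change 1.51 ± 0.27, adjusted p = 0.0069). PGR5 GRMZM2G121494 had 598 and 604 in maturing M, against 162 and 212 in SST M (log2 change 1.69 ± 0.28, adjusted p = 0.0051). The minor antenna protein gene lhcb5 completed the risers, with 287 and 292 in maturing M, against 109 and 141 in SST M (log2 change 1.23 ± 0.21, adjusted p = 0.0053). A ferredoxin, FDX6, was the faller, with 23.1 and 17.9 in maturing M, against 63.0 and 87.3 in SST M (log2 change -1.85 ± 0.30, adjusted p = 0.0044), while the far more abundant FDX1 had 22025 and 21090.2 in maturing M, against 8672 and 12020.3 in SST M (log2 change 1.08 ± 0.22, adjusted p = 0.012) and was not called. The photosystem I subunit psan1, the fifth most abundant transcript of maturing M, had 25969.6 and 30398 in maturing M, against 14892 and 19762 in SST M (log2 change 0.71 ± 0.26, adjusted p = 0.11). Of these genes psad1 kept its call in all 4 fits without 1 M library. The 6 others that were called lost it in at least 3 of the 4 (adjusted p up to 0.058), and 1, 1, 1 and 3 members rose without maturing replicate 1, maturing replicate 2, SST replicate 1 and SST replicate 2 in turn.

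Phytoene synthase, the first enzyme committed to carotenoids, accounted for both risers among 19 tested genes of chlorophyll and carotenoid synthesis, of which none fell and whose median log2 change was 0.32, with 0.07 as deposited. PSY1 had 199.8 and 212 in maturing M, against 93.6 and 101 in SST M (log2 change 1.08 ± 0.18, adjusted p = 0.0047). Its paralog psy2 had 69.1 and 71.8 in maturing M, against 26.5 and 35.8 in SST M (log2 change 1.19 ± 0.23, adjusted p = 0.0098). The magnesium chelatase subunit gene oy1 was the most abundant of the list and had 253 and 268 in maturing M, against 376 and 399 in SST M (log2 change -0.57 ± 0.12, adjusted p = 0.014). Both phytoene synthase genes lost their call without any 1 M library (adjusted p up to 0.061). With the values as deposited, 1 gene of the list rose and 2 fell.

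Enzymes that make sucrose and starch and enzymes that break them down rose in M. The starch and sucrose list comes from the categories of the study's own supplementary table, which holds genes that the study found to differ between BS and M in these libraries, and it is therefore not independent evidence of a direction. It had 10 risers (14.7%) and 6 fallers (8.82%) among 68 tested, but 6 risers and 10 fallers with the values as deposited. The median log2 change was 0.09 and turned to -0.11 with the values as deposited. Without maturing replicate 1, maturing replicate 2, SST replicate 1 and SST replicate 2 in turn, 4, 4, 5 and 8 members rose and 3, 2, 4 and 5 fell.

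Sucrose-phosphate synthase (sps1), which controls sucrose synthesis, had the largest rise of the list, with 419.7 and 412 scaled FPKM in maturing M, against 39.1 and 50.1 in SST M (log2 change 3.22 ± 0.38, adjusted p = 0.0012). A further sucrose-phosphate synthase, GRMZM2G140107, had 12.2 and 12.2 in maturing M, against 3.32 and 2.57 in SST M (log2 change 1.97 ± 0.37, adjusted p = 0.0088). Sucrose-phosphate phosphatase (spp1), which completes the pathway, had 113 and 105 in maturing M, against 44.8 and 58.4 in SST M (log2 change 1.09 ± 0.18, adjusted p = 0.0055). The steps before them moved in the same direction. Fructose-1,6-bisphosphatase (GRMZM5G836250), the most abundant gene of the list, had 1385 and 1416 in maturing M, against 414 and 543 in SST M (log2 change 1.56 ± 0.15, adjusted p = 0.00049). UDP-glucose pyrophosphorylase (GRMZM2G032003) had 286 and 274 in maturing M, against 97.0 and 145 in SST M (log2 change 1.24 ± 0.20, adjusted p = 0.0049). Of these 5 genes, fructose-1,6-bisphosphatase alone kept its call in all 4 fits without 1 M library. sps1, spp1 and UDP-glucose pyrophosphorylase kept it only without SST replicate 2, and GRMZM2G140107 in none (adjusted p up to 0.054).

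Starch synthesis was represented by 3 risers. The small subunit of ADP-glucose pyrophosphorylase (agpsl1), which makes the glucosyl donor for starch, had 247 and 233 in maturing M, against 63.5 and 92.1 in SST M (log2 change 1.65 ± 0.19, adjusted p = 0.0011). Starch synthase ss1 had 118 and 113 in maturing M, against 29.9 and 31.7 in SST M (log2 change 1.90 ± 0.13, adjusted p = 0.00018). A starch synthase annotated as SS3 (GRMZM2G121612) had 45.2 and 51.3 in maturing M, against 14.4 and 14.4 in SST M (log2 change 1.73 ± 0.21, adjusted p = 0.0014). The groups of each were well apart, with SST libraries close to each other in ss1 and SS3. ss1 kept its call in all 4 fits, agpsl1 lost it without maturing replicate 1 (adjusted p = 0.01) and SS3 without maturing replicate 2 (adjusted p = 0.013).

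Enzymes of breakdown were among the risers too. Beta-fructofuranosidases split sucrose, and of the 2 that rose GRMZM2G018716 had 0.975 and 1.31 scaled FPKM in maturing M and was listed at 0 in both SST libraries (adjusted p = 0.0011), while GRMZM2G174249 had 3.89 and 3.81 in maturing M, against 0.683 and 0.612 in SST M (log2 change 2.19 ± 0.41, adjusted p = 0.0083). The gene annotated as BAM6 (GRMZM5G803981), of the beta-amylases that release maltose from starch, had 24.9 and 22.7 in maturing M, against 12.7 and 9.68 in SST M (log2 change 1.08 ± 0.20, adjusted p = 0.0082). GRMZM2G018716 kept its call in all 4 fits without 1 M library, and the other 2 lost theirs in all 4 (adjusted p up to 0.053).

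Kinases of free hexoses were among the fallers. The fructokinase gene frk2 had 2.46 and 1.39 in maturing M, against 14.9 and 16.6 in SST M (log2 change -2.92 ± 0.53, adjusted p = 0.0077). Its paralog frk1 had 1.21 and 1.59 in maturing M, against 6.94 and 5.50 in SST M (log2 change -1.97 ± 0.25, adjusted p = 0.0016). A hexokinase (GRMZM5G856653) had 0.462 and 0.711 in maturing M, against 3.27 and 4.28 in SST M (log2 change -2.26 ± 0.26, adjusted p = 0.0011). The adenine nucleotide translocators ANT-G1 and ANT-G2, which exchange ATP and ADP across membranes, made up 2 of the other 3 fallers. The list of glycolysis was mixed, with 7 risers and 6 fallers among 53 tested genes, also from the study's table, a median of 0.20 that turned to -0.05 as deposited, and its largest rise was in a phosphofructokinase annotated as PFK3 (GRMZM2G004932), with 6.80 and 7.34 in maturing M, against 0.664 and 0.447 in SST M (log2 change 3.19 ± 0.18, adjusted p = 7.6e-05). Without maturing replicate 1, maturing replicate 2, SST replicate 1 and SST replicate 2 in turn, 3, 3, 4 and 7 glycolysis genes rose and 1, 1, 0 and 0 fell, and with the values as deposited 5 rose and 7 fell. PFK3 and the hexokinase kept their calls in all 4 fits without 1 M library, frk1 lost it without maturing replicate 1 (adjusted p = 0.011) and frk2 without any 1 M library (adjusted p up to 0.067).

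Sugar transporters of the MtN3 (SWEET) family, which let sugars pass down their gradient, exchanged members between the stages. Among 10 SWEET and sucrose transporter genes tested, 3 rose and 2 fell, and the median log2 change was 0.14 and turned to -0.06 with the values as deposited. MtN3 gene GRMZM2G000812 had 0.0577 and 0.288 scaled FPKM in maturing M, against 24.8 and 32.3 in SST M (log2 change -6.11 ± 0.35, adjusted p = 7.6e-05). MtN3 gene GRMZM2G039365, the most abundant of the list, had 20.3 and 16.4 in maturing M, against 204 and 222 in SST M (log2 change -3.52 ± 0.48, adjusted p = 0.0022). In both, the SST libraries were high and agreed closely, and the maturing libraries were low. In the opposite direction, GRMZM2G173669 had 7.24 and 6.85 in maturing M, against 1.45 and 1.64 in SST M (log2 change 2.02 ± 0.22, adjusted p = 0.00091). The related CST1, known in maize for sugar transport and stomatal opening, had 15.1 and 13 in maturing M, against 3.57 and 3.69 in SST M (log2 change 1.88 ± 0.32, adjusted p = 0.0058). GRMZM2G179349 had 1.32 and 1.03 in maturing M and was listed at 0 in both SST libraries (adjusted p = 0.002). It was far higher in BS, with 29.8 and 28.9 in maturing BS, against 1.38 and 0.606 in SST BS. Whether BS transcripts account for its M values was not tested. GRMZM2G000812 and GRMZM2G173669 kept their calls without any 1 M library, and the other 3 lost theirs in every such fit (adjusted p up to 0.045). Of the 10 genes 7 come from the study's table.

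Cytokinin genes moved in both directions. Cytokinins are hormones that promote cell division and chloroplast development, their signal passes through histidine phosphotransfer proteins to response regulators, and cytokinin oxidases degrade them. The list had 3 risers (10%) and 5 fallers (16.7%) among 30 tested, 12 of its genes coming from the study's table, and its median log2 change was 0.15 and turned to -0.04 as deposited. The cytokinin oxidase CKX10 rose, with 139.9 and 103 scaled FPKM in maturing M, against 2.87 and 3.45 in SST M (log2 change 5.14 ± 0.56, adjusted p = 0.00089). Both maturing libraries stood far above both SST libraries. The histidine phosphotransfer protein gene hp2, the most abundant of the list, had 136 and 175 in maturing M, against 34.9 and 47.2 in SST M (log2 change 1.92 ± 0.19, adjusted p = 0.00065). The response regulator RR9 had 3.78 and 2.79 in maturing M, against 0.907 and 0.214 in SST M (log2 change 2.25 ± 0.43, adjusted p = 0.0094).

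All 5 fallers were response regulators, and crr1, crr2, RR6 and RR7 had maturing values of at most 5.37 scaled FPKM and SST values of at least 32.2. The response regulator crr1 had 1.38 and 1.72 in maturing M, against 63.0 and 54.6 in SST M (log2 change -5.04 ± 0.53, adjusted p = 0.00075). Its relative crr2 had 3.09 and 5.37 in maturing M, against 75.1 and 108 in SST M (log2 change -4.38 ± 0.57, adjusted p = 0.0018). RR7 had 1.92 and 2.51 in maturing M, against 47.2 and 53.1 in SST M (log2 change -4.36 ± 0.34, adjusted p = 0.00024). Response regulators of this kind are themselves induced by cytokinin. RR6 had 1.98 and 1.68 in maturing M, against 32.2 and 40.6 in SST M (log2 change -4.13 ± 0.71, adjusted p = 0.0059). At a lower level, crr5 had 1.21 and 0.808 in maturing M, against 8.39 and 6.79 in SST M (log2 change -2.64 ± 0.29, adjusted p = 0.00093). The calls of crr1, RR7, crr5 and hp2 held without any 1 M library. CKX10 lost its call without maturing replicate 1 (adjusted p = 0.011), RR9 in every fit but that without SST replicate 1 (adjusted p up to 0.071), and crr2 and RR6 in all 4 (adjusted p up to 0.05).

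Auxin genes, which include transport, response and conjugation genes, had 7 risers (7.61%) and 10 fallers (10.9%) among 92 tested, with a median log2 change of -0.15, and 58 of the genes come from the study's table. Fallers included AUX14, with 0.962 and 0.337 in maturing M, against 10.9 and 7.42 in SST M (log2 change -3.44 ± 0.48, adjusted p = 0.0024). The auxin-binding protein gene abp1 had 2.12 and 1.89 in maturing M, against 22.1 and 13.9 in SST M (log2 change -2.98 ± 0.26, adjusted p = 0.00037). A SAUR gene (GRMZM2G354209), of a family induced by auxin in growing tissue, had 0.657 and 0.564 in maturing M, against 13.4 and 9.74 in SST M (log2 change -3.75 ± 0.42, adjusted p = 0.00096). These 3 were at or below 2.12 scaled FPKM in both maturing libraries. Genes named AILP1 stood at both ends of the list, and GRMZM2G003762 had 1414 and 1444 in maturing M, against 189.9 and 233 in SST M (log2 change 2.76 ± 0.13, adjusted p = 4.2e-05). AILP1 GRMZM2G119219 had 0.430 and 0.492 in maturing M, against 20.8 and 14.0 in SST M (log2 change -4.60 ± 0.43, adjusted p = 0.00048). AUX14 lost its call in all fits but that without maturing replicate 1 (adjusted p up to 0.02), and the other 4 kept theirs in all 4 fits. Without maturing replicate 1, maturing replicate 2, SST replicate 1 and SST replicate 2 in turn, 1, 2, 4 and 4 auxin genes rose and 5, 4, 5 and 4 fell. With the values as deposited 4 rose and 12 fell.

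Jasmonate genes had 5 risers (13.2%), all TIFY genes, and 3 fallers (7.89%), all oxylipin enzymes, among 38 tested, with a median log2 change of -0.12. The TIFY family includes the JAZ repressors of jasmonate response. TIFY15, the riser with the largest change, had 217 and 192 in maturing M, against 68.4 and 62.3 in SST M (log2 change 1.64 ± 0.21, adjusted p = 0.0019). Allene oxide synthase aos2, an early enzyme of jasmonate synthesis, had 0 and 0.223 in maturing M, against 4.73 and 6.35 in SST M (log2 change -4.04 ± 0.38, adjusted p = 0.00047). The next fallers are also enzymes of oxylipins, the class of lipids to which jasmonate belongs. The lipoxygenase gene lox5 had 0.967 and 0.322 in maturing M, against 6.57 and 3.81 in SST M (log2 change -2.65 ± 0.50, adjusted p = 0.0085). The reductase gene opr7 had 0.241 and 0.241 in maturing M, against 0.835 and 1.24 in SST M (log2 change -1.36 ± 0.26, adjusted p = 0.0098). Another lipoxygenase, lox10, was much more abundant and not called, with 412 and 498 in maturing M, against 274 and 315 in SST M (log2 change 0.62 ± 0.47, adjusted p = 0.44). aos2 kept its call without any 1 M library, while TIFY15, lox5 and opr7 lost theirs in all 4 such fits (adjusted p up to 0.056). In those fits 0, 0, 0 and 1 jasmonate genes rose and 1 fell in each, without maturing replicate 1, maturing replicate 2, SST replicate 1 and SST replicate 2 in turn, and with the values as deposited 2 rose and 3 fell. Among 12 gibberellin genes 1 rose and 2 fell, and both fallers were annotated as gibberellin 2-oxidases, which inactivate the hormone, and 1, 0, 1 and 2 fell in the same fits.

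**Figure D3:**
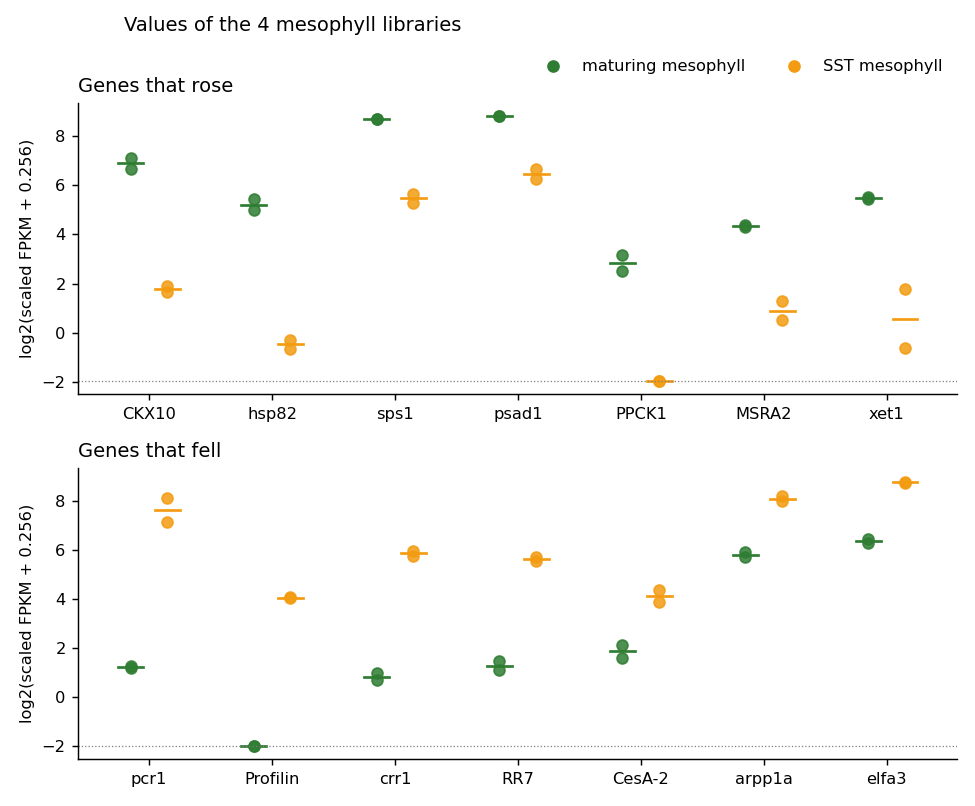
Values of 7 genes that rose (top) and 7 that fell (bottom) in the 2 maturing M libraries (green) and the 2 SST M libraries (orange), as log2(scaled FPKM + 0.256), with a short line at the mean of each group and a dotted line at a value of 0. The groups do not overlap in any of the 14 genes, PPCK1 is listed at 0 in both SST libraries and Profilin in both maturing libraries.

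Transcripts of the ribosome were lower in maturing M. Among 38 tested ribosomal protein genes, 22 fell (57.9%, against 3.87% of all genes tested) and 1 rose. The median log2 change was -1.55, and as deposited -1.80 with 25 fallers. Without maturing replicate 1, maturing replicate 2, SST replicate 1 and SST replicate 2 in turn, 13, 13, 15 and 18 fell. None of these genes was taken from the study's table. Ribosomal protein genes have near-identical copies that share reads, so the values of single copies are uncertain.

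The acidic proteins of the ribosomal stalk, which bind elongation factors, fell with the rest. The most abundant of the fallers, arpp1a, had 60.1 and 52.2 scaled FPKM in maturing M, against 292 and 256 in SST M (log2 change -2.28 ± 0.16, adjusted p = 0.00018). RP-P0, the base of the stalk, had 25.2 and 31.4 in maturing M, against 152 and 116 in SST M (log2 change -2.23 ± 0.22, adjusted p = 0.00054). arpp2a-3 had the largest fall, with 1.29 and 1.06 in maturing M, against 23.4 and 10.2 in SST M (log2 change -3.46 ± 0.51, adjusted p = 0.003). A copy of the same family went the other way. arpp2b was the riser of the list, with 515 and 564 in maturing M, against 249 and 277 in SST M (log2 change 1.04 ± 0.13, adjusted p = 0.0016). rpl19, the most abundant member, had 518 and 596 in maturing M, against 327 and 389 in SST M (log2 change 0.64 ± 0.17, adjusted p = 0.032) and was not called. Outside the stalk, rpl32 had 44.2 and 35.5 in maturing M, against 165 and 175 in SST M (log2 change -2.09 ± 0.20, adjusted p = 0.00048). arpp1a, RP-P0 and rpl32 kept their calls in all 4 fits without 1 M library, arpp2b lost it without maturing replicate 2 (adjusted p = 0.01), and arpp2a-3 kept it only without SST replicate 2 (adjusted p up to 0.029).

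Of 13 translation factors tested, 4 fell (30.8%) and 1 rose, with a median log2 change of -0.60. Elongation factor gene elfa3, which delivers aminoacyl-tRNA to the ribosome, had 88.4 and 78.7 scaled FPKM in maturing M, against 428 and 443 in SST M (log2 change -2.38 ± 0.16, adjusted p = 0.00015). The helicase gene tif-4A3 had 24.8 and 24.3 in maturing M, against 77.9 and 79.7 in SST M (log2 change -1.67 ± 0.12, adjusted p = 0.00018). Both were several-fold lower in maturing M, with replicates close together. GOS2 was the riser, with 135 and 122 in maturing M, against 69.6 and 63.7 in SST M (log2 change 0.94 ± 0.13, adjusted p = 0.0023), and was not called with the values as deposited. eif5a was more abundant than all of these and its groups overlapped, with 549 and 593 in maturing M, against 507 and 588 in SST M (log2 change 0.06 ± 0.23, adjusted p = 1). elfa3 and tif-4A3 kept their calls without any 1 M library, and GOS2 lost it without maturing replicate 1 or SST replicate 2 (adjusted p up to 0.015).

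Histones package newly made DNA, and 5 of 35 tested histone genes fell (14.3%) while none rose. The median log2 change was -0.92. Most of these genes, 31 of the 36 measured, come from the study's table, and histone copies share reads. Histone H2A gene HTA12 had 28.6 and 30.6 scaled FPKM in maturing M, against 69.2 and 69.5 in SST M (log2 change -1.22 ± 0.12, adjusted p = 0.00056). Histone H3 gene GRMZM2G475899 had 0.599 and 0.691 in maturing M, against 10.1 and 8.39 in SST M (log2 change -3.40 ± 0.53, adjusted p = 0.0038). The most abundant member, histone H3 GRMZM2G051879, was not called, with 365 and 396 in maturing M, against 247 and 298 in SST M (log2 change 0.49 ± 0.17, adjusted p = 0.09). Only HTA12 kept its call in all 4 fits without 1 M library. In those fits 1, 2, 1 and 2 histone genes fell, without maturing replicate 1, maturing replicate 2, SST replicate 1 and SST replicate 2 in turn, and with the values as deposited 9 fell.

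Genes of cell division and DNA replication had 5 risers (8.93%) and 3 fallers (5.36%) among 56 tested, against 4.48 and 3.87% of all genes tested. A P-type cyclin annotated as CYCP2;1 (GRMZM2G148621) had the largest change, with 33.7 and 31.2 scaled FPKM in maturing M, against 0.874 and 1.28 in SST M (log2 change 4.63 ± 0.32, adjusted p = 0.00017), and kept its call without any 1 M library. A cyclin gene, GRMZM2G160563, had 7.90 and 7.81 in maturing M, against 51.3 and 56.2 in SST M (log2 change -2.73 ± 0.33, adjusted p = 0.0013), and kept its call only without SST replicate 1 (adjusted p up to 0.013). Over the list, 1, 1, 1 and 2 members rose and 1, 0, 2 and 2 fell without maturing replicate 1, maturing replicate 2, SST replicate 1 and SST replicate 2 in turn, and with the values as deposited 2 rose and 3 fell.

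**Figure D4:**
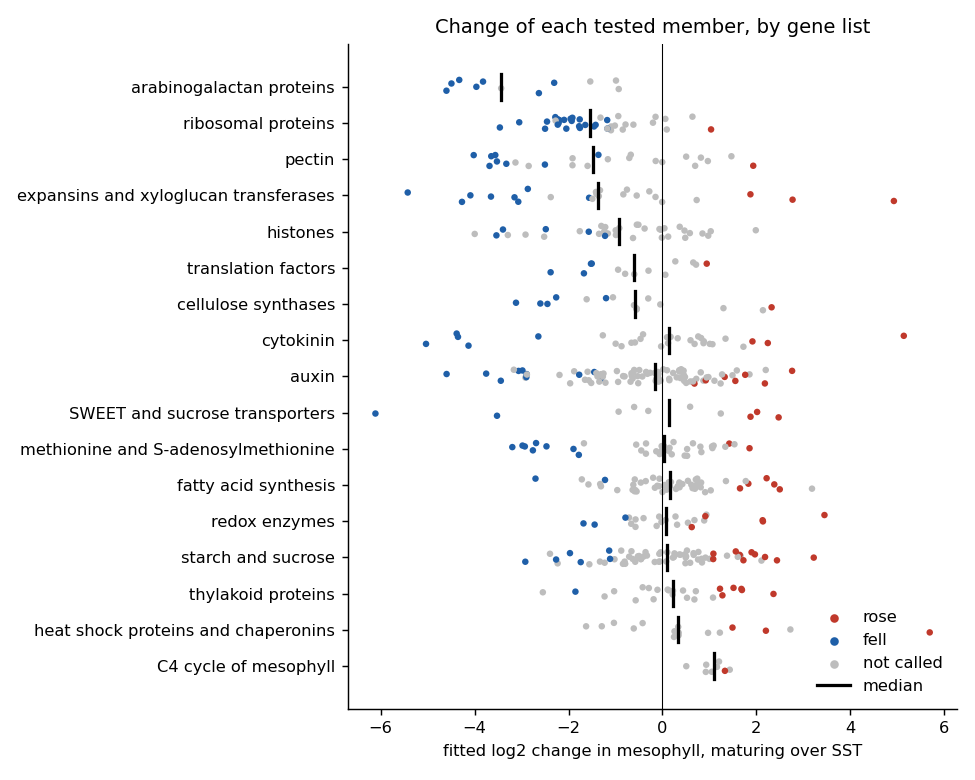
Fitted log2 change in M, maturing over SST, of each tested member of 17 gene lists, with genes that rose in red, genes that fell in blue, genes not called in grey and the list's median as a black bar. Arabinogalactan, ribosomal, pectin, expansin and histone genes lie mostly to the left, the C4 enzymes all lie to the right, and with the values as deposited the medians of the cytokinin, SWEET, methionine, fatty acid, redox, starch and sucrose, and thylakoid lists lie below 0.

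Genes of the cell wall were among the largest fallers. Of 11 arabinogalactan protein genes, all from the study's table, 7 fell (63.6%), none rose, and the median log2 change was -3.43. Fasciclin-like arabinogalactan proteins (FLA) are anchored at the plasma membrane and in the wall. FLA13 (GRMZM2G001514), the most abundant, had 5.78 and 3.17 scaled FPKM in maturing M, against 112 and 108 in SST M (log2 change -4.60 ± 0.58, adjusted p = 0.0016). FLA6 GRMZM2G051185 had 0.165 and 0 in maturing M, against 7.86 and 5.10 in SST M (log2 change -4.33 ± 0.39, adjusted p = 0.0004). FLA11 had 0 and 0.0539 in maturing M, against 3.04 and 5.59 in SST M (log2 change -3.96 ± 0.37, adjusted p = 0.00049). In each of the 3, both maturing libraries were far below both SST libraries. FLA11 and FLA6 GRMZM2G051185 kept their calls in all 4 fits without 1 M library, and FLA13 only without maturing replicate 1 (adjusted p up to 0.018). In those fits 5, 3, 3 and 3 arabinogalactan genes fell, without maturing replicate 1, maturing replicate 2, SST replicate 1 and SST replicate 2 in turn.

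Expansins, which loosen the wall, and xyloglucan transferases, which cut and rejoin its xyloglucan, had 8 fallers (33.3%) and 3 risers (12.5%) among 24 tested, with a median log2 change of -1.38. The beta-expansin gene expB8 had 0.0665 and 0.266 scaled FPKM in maturing M, against 8.49 and 6.90 in SST M (log2 change -4.27 ± 0.47, adjusted p = 0.00086). expB6 had 2.75 and 1.64 in maturing M, against 37.4 and 43.7 in SST M (log2 change -4.09 ± 0.66, adjusted p = 0.0047). A xyloglucan transferase annotated as XTR3 (GRMZM2G166944) had 1.65 and 0.701 in maturing M, against 67.0 and 49.8 in SST M (log2 change -5.43 ± 0.82, adjusted p = 0.0035). One enzyme of the same activity moved the other way by a similar amount. xet1 had 46.5 and 43.3 in maturing M, against 0.386 and 3.16 in SST M (log2 change 4.93 ± 0.71, adjusted p = 0.0027), with SST libraries that differed from each other. The beta-expansin gene GRMZM2G094990 was the most abundant member and was not called, with 528 and 505 in maturing M, against 280.4 and 346 in SST M (log2 change 0.73 ± 0.54, adjusted p = 0.43). expB8 kept its call without any 1 M library, xet1 lost it without maturing replicate 1 or 2 (adjusted p up to 0.027), and expB6 and XTR3 lost it in all 4 fits (adjusted p up to 0.045). Between 3 and 4 members fell and 1 to 2 rose in those fits, and 21 of the 26 measured come from the study's table.

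Among 16 genes of cellulose and related glucan synthesis, 15 of the 17 measured from the study's table, 5 fell (31.2%) and 1 rose, with a median log2 change of -0.58. CesA-2, a subunit of cellulose synthase, had 4.15 and 2.82 in maturing M, against 20.7 and 14.7 in SST M (log2 change -2.26 ± 0.25, adjusted p = 0.00093). CesA-1 had 1.54 and 0.736 in maturing M, against 7.94 and 7.75 in SST M (log2 change -2.60 ± 0.36, adjusted p = 0.0022). CslF6-1, which makes mixed-linkage glucan of grass walls, had 1.12 and 1.34 in maturing M, against 12.5 and 12.7 in SST M (log2 change -3.12 ± 0.28, adjusted p = 0.0004). All 3 were low in maturing M but above 0 in each library. The riser, GRMZM2G074546, is annotated as cellulose synthase-like and had 53.2 and 54.4 in maturing M, against 7.88 and 14.0 in SST M (log2 change 2.33 ± 0.42, adjusted p = 0.0073). CesA-2 and CslF6-1 kept their calls without any 1 M library, CesA-1 only without maturing replicate 1 (adjusted p up to 0.015), and GRMZM2G074546 in none of the 4 fits (adjusted p up to 0.053).

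Pectin genes followed, with 8 fallers (33.3%) and 1 riser among 24 tested and a median log2 change of -1.48. A pectinesterase (GRMZM2G136106), which removes methyl groups from pectin, had 0.963 and 0.753 in maturing M, against 20.9 and 15 in SST M (log2 change -4.02 ± 0.39, adjusted p = 0.00055). A polygalacturonase inhibitor annotated as PGIP2 (GRMZM2G174708) had 1.72 and 1.01 in maturing M, against 21.1 and 18.2 in SST M (log2 change -3.65 ± 0.30, adjusted p = 0.00031). BURP4 was listed at 0 in both maturing libraries and had 3.83 and 1.87 in SST M (adjusted p = 0.00074). These 3 kept their calls in all 4 fits without 1 M library. A pectate lyase gene (GRMZM2G005562) was the riser, with 41.1 and 39.7 in maturing M, against 9.63 and 11.2 in SST M (log2 change 1.93 ± 0.26, adjusted p = 0.0021), and lost its call in all 4 (adjusted p up to 0.019). In those fits 5, 4, 6 and 5 pectin genes fell, without maturing replicate 1, maturing replicate 2, SST replicate 1 and SST replicate 2 in turn, and with the values as deposited 12 fell. Of the 28 genes measured, 24 come from the study's table.

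Genes of methionine and S-adenosylmethionine, the methyl donor of the cell, had 8 fallers (22.9%) and 2 risers (5.71%) among 35 tested, all from the study's table. The S-adenosylmethionine synthetase gene annotated as SAM1 (GRMZM2G054123) had 6.70 and 7.91 scaled FPKM in maturing M, against 81.5 and 58.2 in SST M (log2 change -3.20 ± 0.31, adjusted p = 0.00054). SAM-2 (GRMZM2G117198) had 22.6 and 22.7 in maturing M, against 73.3 and 83.9 in SST M (log2 change -1.78 ± 0.18, adjusted p = 0.00065). A methionine synthase (GRMZM2G449274) had 2.26 and 3.26 in maturing M, against 22.1 and 24.5 in SST M (log2 change -2.98 ± 0.33, adjusted p = 0.00091). An adenosylhomocysteinase (GRMZM2G015295), which acts after the methyl group has been passed on, fell as well, with a log2 change of -2.47. SAM1, SAM-2 and GRMZM2G449274 kept their calls without any 1 M library. GRMZM2G015295 lost its call without maturing replicate 2 (adjusted p = 0.011). Over the list, 5, 3, 4 and 4 members fell and 1, 1, 1 and 2 rose without maturing replicate 1, maturing replicate 2, SST replicate 1 and SST replicate 2 in turn. The list's median was 0.04 and turned to -0.12 with the values as deposited.

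Nitrogen assimilation genes had 1 riser (6.25%) and 3 fallers (18.8%) among 16 tested, with a median log2 change of -0.24. Cytosolic glutamine synthetase gene gln2 had 1.79 and 0.268 in maturing M, against 14.9 and 17.6 in SST M (log2 change -3.99 ± 0.71, adjusted p = 0.0071). The related gln3 had 0.169 and 0.0846 in maturing M, against 1.26 and 1.90 in SST M (log2 change -2.25 ± 0.38, adjusted p = 0.0053), and the asparagine synthetase gene asn3 had 0.930 and 0.552 in maturing M, against 9.84 and 9.61 in SST M (log2 change -3.35 ± 0.48, adjusted p = 0.0026). The plastid pair had higher values in maturing M. Plastid glutamine synthetase gln1 had 1604 and 1841 in maturing M, against 608 and 803 in SST M (log2 change 1.30 ± 0.28, adjusted p = 0.017) and was not called, and ferredoxin-dependent glutamate synthase fgs1 rose, with 235 and 233 in maturing M, against 71.7 and 76.7 in SST M (log2 change 1.65 ± 0.30, adjusted p = 0.0072). All 4 calls were lost in at least 3 of the fits without 1 M library (adjusted p up to 0.05), and gln2 kept its call only without maturing replicate 1.

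The list of fatty acid synthesis, which also holds acyl-activating and acyl-CoA binding genes, had 5 risers (9.43%) and 2 fallers (3.77%) among 53 tested. All come from the study's table, and the median log2 change was 0.16 and turned to -0.09 as deposited. The most abundant member, acyl carrier protein gene GRMZM2G136262, was not called, with 397 and 372 scaled FPKM in maturing M, against 517 and 649 in SST M (log2 change -0.59 ± 0.15, adjusted p = 0.03). The acyl carrier protein gene GRMZM2G122324, which holds the growing chain, had 58.1 and 58.9 scaled FPKM in maturing M, against 367 and 398 in SST M (log2 change -2.70 ± 0.11, adjusted p = 1.6e-05), and thus the smallest p of the lists. A condensing enzyme annotated as FAB1 (GRMZM2G124335) had 88.4 and 91.7 in maturing M, against 13 and 22.4 in SST M (log2 change 2.38 ± 0.24, adjusted p = 0.00066). The acyl-CoA binding protein gene annotated as ACBP2 (GRMZM2G108138) had 70.0 and 71.1 in maturing M, against 17.1 and 22.6 in SST M (log2 change 1.83 ± 0.15, adjusted p = 0.0003). The thioesterase FATB (GRMZM2G406603), which releases the finished chain, had 4.80 and 4.99 in maturing M, against 0.936 and 0.770 in SST M (log2 change 2.22 ± 0.25, adjusted p = 0.0011). An acyl-activating enzyme annotated as AAE7 (GRMZM2G013783) had 36.6 and 30.4 in maturing M, against 5.56 and 5.83 in SST M (log2 change 2.50 ± 0.25, adjusted p = 0.00062). These 5 calls held without any 1 M library, and 4 members rose in each of those fits.

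Stress and redox genes rose in a few members only. Of 16 heat shock proteins and chaperonins, with a median log2 change of 0.34, 3 rose (18.8%) and none fell, in the fit of all libraries and in each fit without 1 M library. hsp82, an HSP90-type chaperone gene, had the largest change of all named risers, with 43.2 and 31.6 scaled FPKM in maturing M, against 0.374 and 0.564 in SST M (log2 change 5.69 ± 0.30, adjusted p = 5.6e-05). The small heat shock protein gene hsp18f had 78.3 and 66.8 in maturing M, against 14.2 and 16.9 in SST M (log2 change 2.20 ± 0.19, adjusted p = 0.00034). Hsp70 (GRMZM2G310431) had 26.2 and 23.2 in maturing M, against 8.97 and 8.23 in SST M (log2 change 1.49 ± 0.15, adjusted p = 0.00065). In each of the 3 the maturing libraries stood above the SST libraries. The most abundant member, the plastid co-chaperonin CHL-CPN10, had 107 and 121 in maturing M, against 186 and 163 in SST M (log2 change -0.61 ± 0.19, adjusted p = 0.066) and was not called.

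Methionine sulfoxide reductases, which repair oxidized methionine, gave 3 of the 5 risers among 23 redox genes, whose median log2 change was 0.07 and turned to -0.18 as deposited. MSRB1, an abundant member, had 529.9 and 524 in maturing M, against 101 and 142 in SST M (log2 change 2.13 ± 0.21, adjusted p = 0.00061). MSRA2 had 20.5 and 19.6 in maturing M, against 1.16 and 2.18 in SST M (log2 change 3.45 ± 0.25, adjusted p = 0.00021). The catalase gene Cat0 (GRMZM2G090568), whose product breaks down hydrogen peroxide, had 66.3 and 65.6 in maturing M, against 15.3 and 14.3 in SST M (log2 change 2.14 ± 0.24, adjusted p = 0.0011). In each of these 3 both maturing libraries stood above both SST libraries, and the SST libraries of MSRA2 differed from each other. Superoxide dismutases were the 3 fallers, and sod-1a, the most abundant of the list, had 267 and 215 in maturing M, against 759 and 778 in SST M (log2 change -1.68 ± 0.20, adjusted p = 0.0011). MSRB1 and MSRA2 kept their calls in all 4 fits without 1 M library, Cat0 lost it without maturing replicate 1 or 2 (adjusted p up to 0.011) and sod-1a without maturing replicate 2 (adjusted p = 0.011). In those fits 2, 2, 4 and 5 redox genes rose and 2, 0, 2 and 2 fell, without maturing replicate 1, maturing replicate 2, SST replicate 1 and SST replicate 2 in turn.

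Aquaporins, channels for water and small solutes, had 3 fallers (13.6%) and no riser among 22 tested, with a median log2 change of -0.43. The NOD26-like gene NIP2-3 (Lsi6), a silicon transporter in rice, had 0.357 and 0.153 in maturing M, against 26.1 and 45.2 in SST M (log2 change -6.11 ± 0.88, adjusted p = 0.0028). It lost its call without any 1 M library (adjusted p up to 0.03). Plasma membrane aquaporin PIP1-5 had 52.2 and 50.4 in maturing M, against 140.2 and 110.4 in SST M (log2 change -1.27 ± 0.14, adjusted p = 0.00085). PIP2-1 had 62.9 and 56.8 in maturing M, against 136 and 136 in SST M (log2 change -1.18 ± 0.12, adjusted p = 0.00072). Both kept their calls in all 4 such fits. PIP1-1, the most abundant, had 414 and 536 in maturing M, against 499 and 636 in SST M (log2 change -0.26 ± 0.20, adjusted p = 0.46), with groups that overlapped.

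Among 222 tested genes of transcription factor families, 10 rose (4.50%) and 16 fell (7.21%), against 4.48 and 3.87% of all genes tested, and the median was 0.12, turning to -0.10 as deposited. The risers included the CONSTANS-like gene COL8, the most abundant of the families, with 150.3 and 149 scaled FPKM in maturing M, against 58.3 and 74.7 in SST M (log2 change 1.18 ± 0.15, adjusted p = 0.0016). NAC1 had 63.7 and 64.0 in maturing M, against 19.2 and 17.9 in SST M (log2 change 1.77 ± 0.18, adjusted p = 0.00066). MYB139 had the largest rise at a low level, with 2.47 and 1.79 in maturing M, against 0.118 and 0.223 in SST M (log2 change 2.48 ± 0.34, adjusted p = 0.0023). In each of these 3 the maturing libraries were the higher ones. The largest fall was in bHLH20, with 0.114 and 0.114 in maturing M, against 7.30 and 8.82 in SST M (log2 change -4.48 ± 0.27, adjusted p = 9.5e-05). GLK1, which promotes chloroplast genes in M, had 113 and 137 in maturing M, against 67.3 and 73.7 in SST M (log2 change 0.82 ± 0.37, adjusted p = 0.19) and was not called. NAC1 and bHLH20 kept their calls without any 1 M library, while COL8 lost it without maturing replicate 1 or 2 (adjusted p up to 0.011) and MYB139 without maturing replicate 1 or SST replicate 1 (adjusted p up to 0.011). Without maturing replicate 1, maturing replicate 2, SST replicate 1 and SST replicate 2 in turn, 5, 3, 4 and 6 of these genes rose and 8, 8, 7 and 14 fell. With the values as deposited 7 rose and 18 fell.

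The genes with a RefSeq name and the largest changes included several of other roles. The vacuolar protease gene see2b, of the legumain type, had 9.84 and 11.6 in maturing M and 0 and 0.315 in SST M (log2 change 4.84 ± 0.38, adjusted p = 0.00024). Hm2, a homologue of the gene for resistance to HC-toxin, had 7.02 and 5.21 in maturing M, against 0 and 0.434 in SST M (log2 change 3.91 ± 0.43, adjusted p = 0.00091). mlo8, of a family of membrane proteins known for mildew susceptibility, had 17.0 and 15 in maturing M, against 1.98 and 3.01 in SST M (log2 change 2.58 ± 0.39, adjusted p = 0.0033). All 3 risers were low in both SST libraries. The defensin gene DEF1, whose family includes antimicrobial peptides, fell, was listed at 0 in both maturing libraries and had 7.38 and 10.6 in SST M (adjusted p = 0.00012). Among the other fallers, the polyamine oxidase gene mpao1 had 4.19 and 6.85 in maturing M, against 148 and 112 in SST M (log2 change -4.52 ± 0.69, adjusted p = 0.0035). Profilin (GRMZM2G140455), which binds actin monomers, was listed at 0 in both maturing libraries and had 16.2 and 16.7 in SST M (adjusted p = 6.5e-05). Profilin belongs to the tubulins, actins and profilins, of which 2 rose and 2 fell among 31 tested, with 1 faller in each fit without 1 M library and 5 with the values as deposited. see2b, DEF1 and Profilin kept their calls in all 4 fits without 1 M library, Hm2 lost it without maturing replicate 1 (adjusted p = 0.01), and mpao1 and mlo8 lost it in all 4 (adjusted p up to 0.037).

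Among fallers known only by name, pcr1 had 2.20 and 2.02 in maturing M, against 278 and 141 in SST M (log2 change -6.39 ± 0.46, adjusted p = 0.00021). TAZ1 had 0.935 and 0.351 in maturing M, against 38.2 and 46.5 in SST M (log2 change -5.64 ± 0.47, adjusted p = 0.00032). kin1 was an abundant transcript at SST, with 92.3 and 157 in maturing M, against 2850.2 and 3766 in SST M (log2 change -4.77 ± 0.68, adjusted p = 0.0027). The first pair kept its calls without any 1 M library, and kin1 lost it in all 4 such fits (adjusted p up to 0.03).

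Most of the abundant transcripts were not called. A single gene, GRMZM2G309058, took 13.7 and 10.7% of the summed FPKM in maturing M, against 12.0 and 11.9% in SST M. Of the 10 genes with the highest mean in maturing M, only GRMZM2G121878 was called, a gene planned for the C4 list but left out of it. It had 15373 and 22522 in maturing M, against 4365 and 5743 in SST M (log2 change 1.89 ± 0.28, adjusted p = 0.003) and kept its call only without maturing replicate 1 (adjusted p up to 0.027).

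The labelled cell type was checked against marker genes. The 8 C4 enzymes of M summed to 51982 and 55278 scaled FPKM in maturing M and to 23659 and 28484 in SST M, against 17533 and 16867 in maturing BS and 8965 and 8865 in SST BS. The 13 BS markers summed to 2515 and 2535 in maturing M and to 2938 and 3131 in SST M, against 40447 and 38154 in maturing BS and 19642 and 17724 in SST BS, and none of them was at 0 in any M library. Transcripts of BS markers were therefore measurable in all 4 M libraries, at lower summed levels in maturing M, and their part in the M change was not tested. Among the 13, however, pDCT1 was higher in M than in BS at both stages. It had 715 and 884 in maturing M and 447 and 663 in SST M, against 201 and 185 in maturing BS and 157 and 145 in SST BS. Its M values, which were higher in maturing M, are part of these sums. Of the 13 BS markers 4 fell in M and none rose, with a median log2 change of -0.66. pDCT2, a plastid dicarboxylate transporter, had 51.3 and 45.8 in maturing M, against 112 and 104 in SST M (log2 change -1.15 ± 0.16, adjusted p = 0.0023). The 3 other fallers were BOU and 2 triosephosphate isomerases. All 4 lost their calls without maturing replicate 1, maturing replicate 2 or SST replicate 1, and only BOU and pDCT2 kept theirs without SST replicate 2. NADP-malic enzyme me3, the main decarboxylase of the BS, was not called, with 251 and 267 in maturing M, against 379 and 361 in SST M (log2 change -0.51 ± 0.25, adjusted p = 0.22). The small subunit of Rubisco, rbcS, likewise was not called, with 864 and 786 in maturing M, against 1099 and 1062 in SST M (log2 change -0.39 ± 0.24, adjusted p = 0.33).

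Markers of the other leaf cell types were summed in the same way, and their part in the M change was not tested. The 15 epidermis and cuticle markers summed to 15.4 and 14.7 in maturing M, against 18.8 and 19.7 in SST M, at most 3 of them were at 0 in a library, and of 12 tested 1 (fae1) fell. The 6 phloem and companion cell markers summed to 14.0 and 12.3 in maturing M, against 14.6 and 20.9 in SST M, with at most 2 at 0. The 13 secondary wall and xylem markers summed to 240.2 and 237 in maturing M, against 273 and 328 in SST M, and 8 and 6 of them were at 0 in maturing M, against 4 and 1 in SST M, and of 10 tested 1 (bk4) fell. Both fae1 and bk4 lost their calls without any 1 M library (adjusted p up to 0.03). For guard cells and the stomatal lineage pan1 alone could be matched, at 0 and 0.0577 in maturing M, against 0 and 0.0809 in SST M. These values lie below the pseudocount and cannot show how much guard cell material was present. As these are bulk samples of captured cells, fewer cells of a type and less RNA per cell cannot be told apart.

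BS cells of the same sections were used to ask whether the change differed between the cell types. In BS, 1985 genes rose (6.10%) and 1631 fell (5.01%). Of the 1457 genes that rose in M, 900 also rose in BS, which is 61.8% of the M risers and 45.3% of the BS risers. Of the 1260 genes that fell in M, 696 also fell in BS, which is 55.2% of the M fallers and 42.7% of the BS fallers. In the opposite direction, 3 of the M risers fell in BS and 10 of the M fallers rose there. Across the 12572 members at or above the upper quartile the changes of both cell types correlated at 0.59, as a description, since genes are not replicates and the libraries of each stage share their depth. The test of the difference itself called 100 genes, 0.307% of those tested, of which 68 were members. The change in M was higher in 44 and lower in 56. Of the 100 genes 32 were listed at 0 in all 4 M libraries and 12 in all 4 BS libraries.

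The named genes among them included PIP1-5, with 189 and 165 scaled FPKM in maturing BS, against 50.0 and 51.5 in SST BS, where it rose, while it fell in M (difference -3.07 ± 0.20, adjusted p = 0.00032). PIP2-1, not chosen by the rule for named genes, also differed, with a difference of -1.90 (adjusted p = 0.0029). The homeobox gene HB115 had 1.36 and 0.882 in maturing M, against 12.6 and 15.2 in SST M (log2 change -3.38 ± 0.35, adjusted p = 0.00066) and 11.8 and 6.63 scaled FPKM in maturing BS, against 5.61 and 5.14 in SST BS (difference -4.07 ± 0.49, adjusted p = 0.0099). sfp3 had 0.644 and 0.682 in maturing M, against 7.54 and 7.11 in SST M (log2 change -3.04 ± 0.45, adjusted p = 0.003) and 20.6 and 26.7 scaled FPKM in maturing BS, against 4.65 and 4.85 in SST BS (difference -5.29 ± 0.63, adjusted p = 0.0099). Thus PIP1-5 and sfp3 fell in M and rose in BS, and HB115 fell in M and was not called in BS.

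In the other direction, the change in M was the higher one. The alpha-tubulin gene tua4 had 76.1 and 54.1 in maturing M, against 149 and 140.4 in SST M (log2 change -1.17 ± 0.21, adjusted p = 0.0073) and 8.63 and 10.5 scaled FPKM in maturing BS, against 172 and 141 in SST BS (difference 2.83 ± 0.30, adjusted p = 0.0055), a fall in both that was larger in BS. The chalcone synthase gene c2, the entry to flavonoids, had 7.77 and 5.27 in maturing M, against 2.99 and 5.98 in SST M (log2 change 0.57 ± 0.41, adjusted p = 0.41) and 0.176 and 0.288 scaled FPKM in maturing BS, against 14.4 and 9.23 in SST BS (difference 5.17 ± 0.57, adjusted p = 0.0068). The lipid transfer protein gene plt2 had 27.0 and 26.0 in maturing M, against 25.0 and 30.3 in SST M (log2 change -0.06 ± 0.25, adjusted p = 1) and 1.47 and 1.27 scaled FPKM in maturing BS, against 15.5 and 12.8 in SST BS (difference 3.09 ± 0.36, adjusted p = 0.0085). c2 and plt2 were not called in M and fell in BS. The number of genes called for the difference depended on single libraries and lay between 110 (without SST M replicate 2) and 684 (without SST BS replicate 2) for a higher M change, and between 98 (without maturing M replicate 2) and 1256 (without maturing BS replicate 2) for a lower one.

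**Figure D5:**
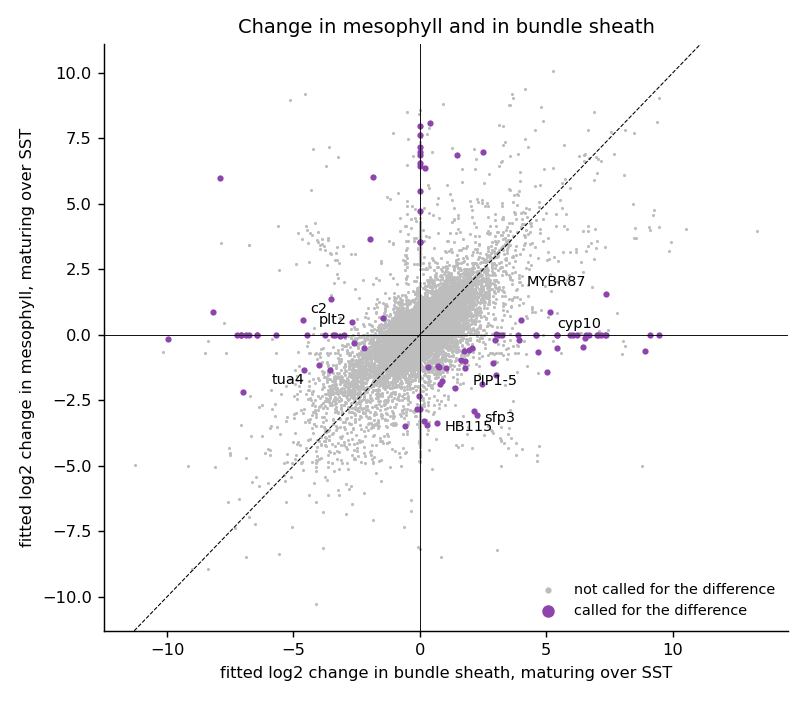
Fitted log2 change, maturing over SST, in M (vertical axis) against that in BS (horizontal axis), for genes whose mean in M is at or above the upper quartile and for all 100 genes called for the difference (purple), with a dashed line of equal change. The cloud of genes runs along the line, PIP1-5, sfp3 and HB115 lie below it and tua4, plt2 and c2 above it.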

How the data were processed

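Gene levels of M and BS cells, 12 libraries in 6 groups of 2, were taken from 1 table of FPKM values that the authors deposited for all gene models, and every column matched 1 sample (0 unmapped columns). The submitters' processing notes name CASAVA 1.3, TopHat, TopHat2 2.0.10, Cuffdiff 2.1.1 and B73 RefGen_v3, while the paper names an earlier assembly, so no coordinates are given, and the effect of aligning Mo17 reads to B73 was not tested. The deposited FPKM values keep no counts, so the precision of single low values is unknown, and a library's relative depth was read from steps in low values. No sequences were printed, because no sequence table was used here.

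Libraries were multiplied to give the same upper quartile over genes above 0 in any library, a pseudocount of 0.256 (the quartile over 10) was added, and genes whose mean reached the pseudocount in 1 of the 6 groups were fitted with limma 3.58.1 (eBayes with trend, 6 residual and 2.12 prior degrees of freedom) in R 4.3.3, with Benjamini-Hochberg adjustment over all genes tested. The study used DESeq with upper quartile normalization on counts, which FPKM do not allow. The contrasts were maturing M minus SST M, and that change minus the BS change. Alternatives covered the scaling (as deposited, median of ratios), pseudocount, filter, trend, libraries in the fit, threshold, replicate block and each library left out. Python 3.11.15, pandas 2.3.3, NumPy 2.4.6 and matplotlib 3.10.9 were used for tables and figures. The replicate numbers are shared between groups, but the deviations of equally numbered libraries correlated at only -0.057 to 0.037, so they were not treated as pairs.

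Names come from RefSeq (Zm-B73-REFERENCE-NAM-5.0, names only), which matched 15731 members and named 2176, and from the annotations of the study's supplementary table of genes differing between BS and M, which covers 1402 members in the shortened copy used. Members and lists were chosen with earlier results of these data known. The 32 lists had been planned on descriptions, which the RefSeq table lacks, and were rebuilt on names and categories, after the tables were seen. Named genes were those given by identifier in the lists or in the paper's text, in each list the called members with the largest rise and fall and the most abundant one, the 10 RefSeq-named genes with the largest called rise and the 10 with the largest fall with both libraries of the higher group at or above the upper quartile and no overlap, the 10 most abundant genes of maturing M, and the 5 largest RefSeq-named differences from BS in each direction. Further members of a list were named as examples after their values were seen.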

Additional observations from a re-analysis of the deposited data

Results flagged for a closer look

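11 genes with a RefSeq name changed differently in M and BS by the test of the difference itself. The 8 chosen by the rule for named genes are given here, as the M change minus the BS change on the log2 scale, with adjusted p from limma. It was -4.07 for HB115 (adjusted p = 0.0099), -5.29 for sfp3 (0.0099), -3.07 for PIP1-5 (0.00032), 2.83 for tua4 (0.0055), 3.09 for plt2 (0.0085) and 5.17 for c2 (0.0068). The P450 gene cyp10 had a difference of -4.26 (0.0080), with 0.349 and 0.112 scaled FPKM in maturing M and none in SST M, against 13.7 and 9.27 in maturing BS and 0.0659 and 0.0721 in SST BS. MYBR87, of the MYB-related family, had a difference of -5.78 (0.0097), with 0.584 and 0.438 scaled FPKM in maturing M, 43.2 and 40.1 in maturing BS and 0 in all 4 SST libraries. The sizes for cyp10 and MYBR87 depend on the pseudocount.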

How the results depend on the processing

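With the values as deposited 1582 genes fell in M, and after median-of-ratios scaling 994 rose and 1593 fell. The count of risers in M was 1457, and 969 with the values as deposited, 26 when fitted on the 4 M libraries alone, 420 on the 6 M libraries of all stages and 3204 at an adjusted p below 0.05. It ranged from 756 to 1023 when 1 M library was left out. The count of fallers was 1260, and 10, 358 and 2583 under the last 3 of these, with a range of 488 to 1166. When 1 library is left out, its group's lone library is assumed to vary like the other groups. Genes with a higher change in M than in BS numbered 44, and 24 on the 8 libraries of both stages, 98 without a filter, 259 at an adjusted p below 0.05 and 110 to 684 with 1 library left out. Genes with a lower change in M numbered 56, and 28, 111, 378 and 98 to 1256 in the same order, and 87 with the values as deposited. With the replicate number as a block, 1216 genes rose and 1023 fell in M, and 27 and 25 had a higher and a lower change in M than in BS. The number of called list members, 225, was 223 with the deposited values and 226 after median-of-ratios scaling. Of the 74 called named genes, 30 kept their call in all 4 fits without 1 M library and 23 in none. On the 4 M libraries alone, with 2 residual degrees of freedom, none kept it, so no call of a named gene held under every alternative. No named call changed direction. Lower depth in SST M limits what can be said of genes listed at 0 there, and the cause of these shifts was not tested.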
